A study of Homo sapiens with 12 samples.

Results

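The genes described here are 2 runs of neighbouring protein-coding genes of human chromosome 19. The short-arm segment runs from COL5A3 to ZNF253 and the long-arm segment from PROSER3 to TRIM28, in the gene order of GENCODE release 29. Members were protein-coding genes listed for both cell lines with a mean of at least 1 CPM, reads scaled to the size of the library, over the 6 libraries of a line. Genes whose names start with RPL, RPS, NDUF or COX and a short list of single genes were left out, 25 of the 847 listed genes of the segments. In A375 the short-arm segment had 198 members and the long-arm segment 401, in all 599 of 18086 genes tested. In CHL1 the numbers were 200 and 397, in all 597 of 17219 genes tested, and 563 genes were members in both lines. A further 223 listed genes of the segments lay under 1 CPM in A375 and 225 in CHL1. The ends of the segments were chosen by the log2 change between parental and resistant A375 cells, in which the first segment was lower and the second higher. The same edgeR test was run in both lines. In A375 its calls rest on the contrast that set the ends, so they are given as counts, without p, and only describe the members. The ends did not use the CHL1 libraries.

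A375 and CHL1 are established human melanoma cell lines. The resistant derivatives, A375AR991 and CHL1AR991, had been grown in rising concentrations of palbociclib, an inhibitor of the cell cycle kinases CDK4 and CDK6, for 7 months in A375 and for 3 months in CHL1. They were kept in 4 µM of the drug afterwards and spent the last 72 h before RNA was taken without it. The parental lines grew in the same supplemented RPMI medium. There were 3 libraries in each of 4 groups. Whether a derivative was a clone or a population, and whether its libraries came from separate cultures, is not in the labels. All p-values therefore rest on the spread among these libraries, which may be technical.

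The libraries held 25398920 to 29812686 counts. SOX10, the lineage factor of melanocytes, stood at 416 and 307 CPM in parental and resistant A375 and at 1011 and 993 CPM in CHL1. MITF, the master regulator of pigment cells, stood between 24.8 and 48 CPM in the 4 groups. The pigment genes MLANA and PMEL were at or near 1 CPM or lower in all 4 groups, and TYRP1 was between 0.218 and 1.81 CPM. The pigment gene DCT stood at 42.8 and 18.4 CPM in parental and resistant CHL1 and below 1 CPM in A375. Summed melanocyte lineage markers were 465 to 631 CPM in parental and 292 to 443 CPM in resistant A375. In CHL1 these sums overlapped (1230 to 1465 and 1241 to 1436 CPM). Summed fibroblast markers were higher in resistant A375 (50.4 to 59.7 CPM per library) than in parental A375 (22.1 to 26.5 CPM), with 7 of the 8 markers at 1 CPM or more in at least 1 group. COL1A2 (0.399 and 14.5 CPM on average) and LUM (7.03 and 21 CPM) rose most. PDGFRB (8.4 and 3.76 CPM) and DCN (1.26 and 0.905 CPM) were lower in resistant A375, and the rest were higher. Summed keratinocyte and epithelial markers overlapped between groups, with 414 to 511 CPM in parental and 499 to 561 CPM in resistant A375. KRT18 (329 and 427 CPM on average) and KRT10 (62.4 and 65.2 CPM) were higher in resistant cells. KRT14 (23.3 and 4.55 CPM) and KRT8 (36.2 and 34.1 CPM) were lower. KRT5, CDH1 and EPCAM were below 1 CPM. Summed leukocyte markers went from between 5.83 and 7.83 to between 2.72 and 3.55 CPM, nearly all of it LYZ (6.49 and 2.6 CPM on average). In CHL1 summed fibroblast markers were lower in resistant (11.1 to 13.6 CPM) than in parental libraries (16.4 to 22 CPM). The fall was that of LUM (14.2 and 7.12 CPM on average), while PDGFRB was 3.12 and 3.66 CPM. The CHL1 keratinocyte sums (32.1 to 33.3 and 30.8 to 33.9 CPM) and leukocyte sums (9.42 to 10.3 and 8.92 to 10.1 CPM) overlapped between groups. The part of these markers in the results below was not tested.

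Chromosome 19 is the most gene-dense human chromosome. It carries large clusters of KRAB zinc finger genes, which arose by repeated local duplication and whose proteins bind DNA, many of them in transposable elements. TRIM28, the last gene of the long-arm segment, encodes the corepressor that these proteins recruit, and it brings in enzymes that make heterochromatin. Zinc finger genes made up 23 of the 198 short-arm members (11.6%) and 148 of the 401 long-arm members (36.9%) in A375.

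Promoter sequences are shown for the gene at the start of each segment, for the 3 long-arm zinc finger genes with the largest rises in A375 among those of at least 10 CPM in the higher group without overlap, and for 2 short-arm zinc finger genes with many reads, because the shares of zinc finger promoters with these motifs are compared between the segments further on. Each runs 5′ to 3′ from 250 bases before to 50 bases after the RefSeq gene start (GRCh38.p14), on the strand of the gene. Capitals mark the ETS factor motif CCGGAAG and the CCAAT box, each on either strand.
COL5A3, chr19:10010455-10010754, minus strand: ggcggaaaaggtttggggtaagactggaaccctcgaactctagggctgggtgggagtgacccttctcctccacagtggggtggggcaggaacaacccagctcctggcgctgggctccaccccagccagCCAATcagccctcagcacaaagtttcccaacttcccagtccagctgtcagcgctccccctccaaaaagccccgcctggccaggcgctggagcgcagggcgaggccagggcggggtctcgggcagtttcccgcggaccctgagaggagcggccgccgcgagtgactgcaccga
PROSER3, chr19:35757926-35758225, plus strand: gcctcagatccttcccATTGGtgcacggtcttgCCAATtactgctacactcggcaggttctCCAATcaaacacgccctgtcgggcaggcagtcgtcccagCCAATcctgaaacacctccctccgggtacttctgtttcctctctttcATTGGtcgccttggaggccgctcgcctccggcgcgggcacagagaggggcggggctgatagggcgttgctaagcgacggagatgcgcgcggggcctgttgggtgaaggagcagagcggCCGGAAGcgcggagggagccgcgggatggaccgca
ZNF440, chr19:11814023-11814322, plus strand: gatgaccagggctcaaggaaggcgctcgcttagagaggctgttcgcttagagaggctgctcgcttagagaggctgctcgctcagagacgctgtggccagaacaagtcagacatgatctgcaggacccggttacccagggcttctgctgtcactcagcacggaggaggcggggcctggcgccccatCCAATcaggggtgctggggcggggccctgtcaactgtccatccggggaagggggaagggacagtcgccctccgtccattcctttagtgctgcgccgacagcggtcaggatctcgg
ZNF791, chr19:12610670-12610969, plus strand: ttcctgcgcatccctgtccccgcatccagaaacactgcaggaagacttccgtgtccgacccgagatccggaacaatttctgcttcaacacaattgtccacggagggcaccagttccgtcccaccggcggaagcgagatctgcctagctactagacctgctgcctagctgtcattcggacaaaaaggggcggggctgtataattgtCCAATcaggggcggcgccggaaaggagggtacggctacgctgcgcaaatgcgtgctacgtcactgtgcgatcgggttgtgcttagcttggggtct
ZNF577, chr19:51887902-51888201, minus strand: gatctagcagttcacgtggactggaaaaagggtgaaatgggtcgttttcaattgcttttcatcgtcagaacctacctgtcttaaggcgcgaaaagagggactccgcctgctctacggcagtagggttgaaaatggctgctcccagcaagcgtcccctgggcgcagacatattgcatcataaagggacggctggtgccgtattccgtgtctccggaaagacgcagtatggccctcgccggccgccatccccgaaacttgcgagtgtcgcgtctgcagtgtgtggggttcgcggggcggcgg
ZNF528, chr19:52397599-52397898, plus strand: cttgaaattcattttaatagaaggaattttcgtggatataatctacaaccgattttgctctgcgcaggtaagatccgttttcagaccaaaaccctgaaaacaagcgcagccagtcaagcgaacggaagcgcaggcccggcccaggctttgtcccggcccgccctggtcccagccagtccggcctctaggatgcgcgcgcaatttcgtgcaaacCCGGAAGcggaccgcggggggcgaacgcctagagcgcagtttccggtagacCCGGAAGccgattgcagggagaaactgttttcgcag
ZNF606, chr19:58002771-58003070, minus strand: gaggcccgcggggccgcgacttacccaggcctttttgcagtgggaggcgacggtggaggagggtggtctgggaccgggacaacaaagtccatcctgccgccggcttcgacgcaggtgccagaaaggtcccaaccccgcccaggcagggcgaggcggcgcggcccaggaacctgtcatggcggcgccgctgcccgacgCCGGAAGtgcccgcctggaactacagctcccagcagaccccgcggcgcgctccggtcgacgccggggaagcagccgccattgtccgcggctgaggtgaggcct
The 2 short-arm zinc finger promoters each hold a CCAAT box and no ETS motif. Those of ZNF528 and ZNF606 hold 2 and 1 ETS motifs and no CCAAT box, and that of ZNF577 holds neither. The genes of the 2 arms were picked by unlike rules. Of the long-arm zinc finger genes with many reads, not shown, ZNF146 and ZNF45 hold neither motif and ZNF544 holds 1 of each.

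In resistant A375 cells the short-arm segment was lower and the long-arm segment higher than in parental cells, almost throughout. The median log2 fold change was -0.39 over the 198 short-arm members (interquartile range -0.55 to -0.22), a fold of 0.764. It was 0.45 over the 401 long-arm members (interquartile range 0.27 to 0.66), a fold of 1.37. Over 11679 protein-coding genes of other chromosomes at 1 CPM or more it was -0.01 (interquartile range -0.19 to 0.15). In these bulk libraries fewer cells with a transcript and less of it per cell cannot be told apart. Of the short-arm members 179 were below 0, and of the long-arm members 366 were above 0. At an adjusted p below 0.05 in edgeR's quasi-likelihood test over all genes, 133 short-arm members were called lower and 3 higher, where 14.8% of all genes were called lower and 13.4% higher. In the long-arm segment 286 members were called higher and 9 lower. The 3 resistant libraries all lay below the 3 parental ones for 141 of the 198 short-arm members, where this held for 21.9% of all genes. They all lay above them for 312 of the 401 long-arm members, where this held for 20.9% of all genes. These counts come from the contrast that set the ends and are given only for their size. Leaving out resistant library 1 gave 5 short-arm members called higher.

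The change was spread along both segments and was not carried by a few genes. The ends were set by this change in gene order. The signs of the runs below were therefore largely fixed beforehand and only describe it. When members were taken in runs of 15 neighbours, all 13 short-arm runs had a median below 0, from -0.56 in the run from USE1 to UNC13A to -0.21 in the run from ELOF1 to ZNF799, which holds 13 zinc finger genes. All 27 long-arm runs had a median above 0, from 0.16 in the run from ZNF780A to C19orf54 to 0.85 in the run from ZFP14 to ZNF383, whose 15 members are all zinc finger genes. The last long-arm run had 11 members, and the last 3 short-arm members were too few to form a run. The 180 members before COL5A3, up to the end of the short arm, had a median of -0.00. Of them 24 were called higher (13.3%) and 28 lower (15.6%), near the 13.4% and 14.8% of all genes. Between the segments, the 30 members before the widest gap between neighbours, from ZNF93 to ZNF254, had a median of 0.08. The 49 members after that gap, from UQCRFS1 to HSPB6, had a median of 0.39, close to that of the long-arm segment. The 3 members after TRIM28 were all called higher, with a median of 0.50.

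**Figure D1:**
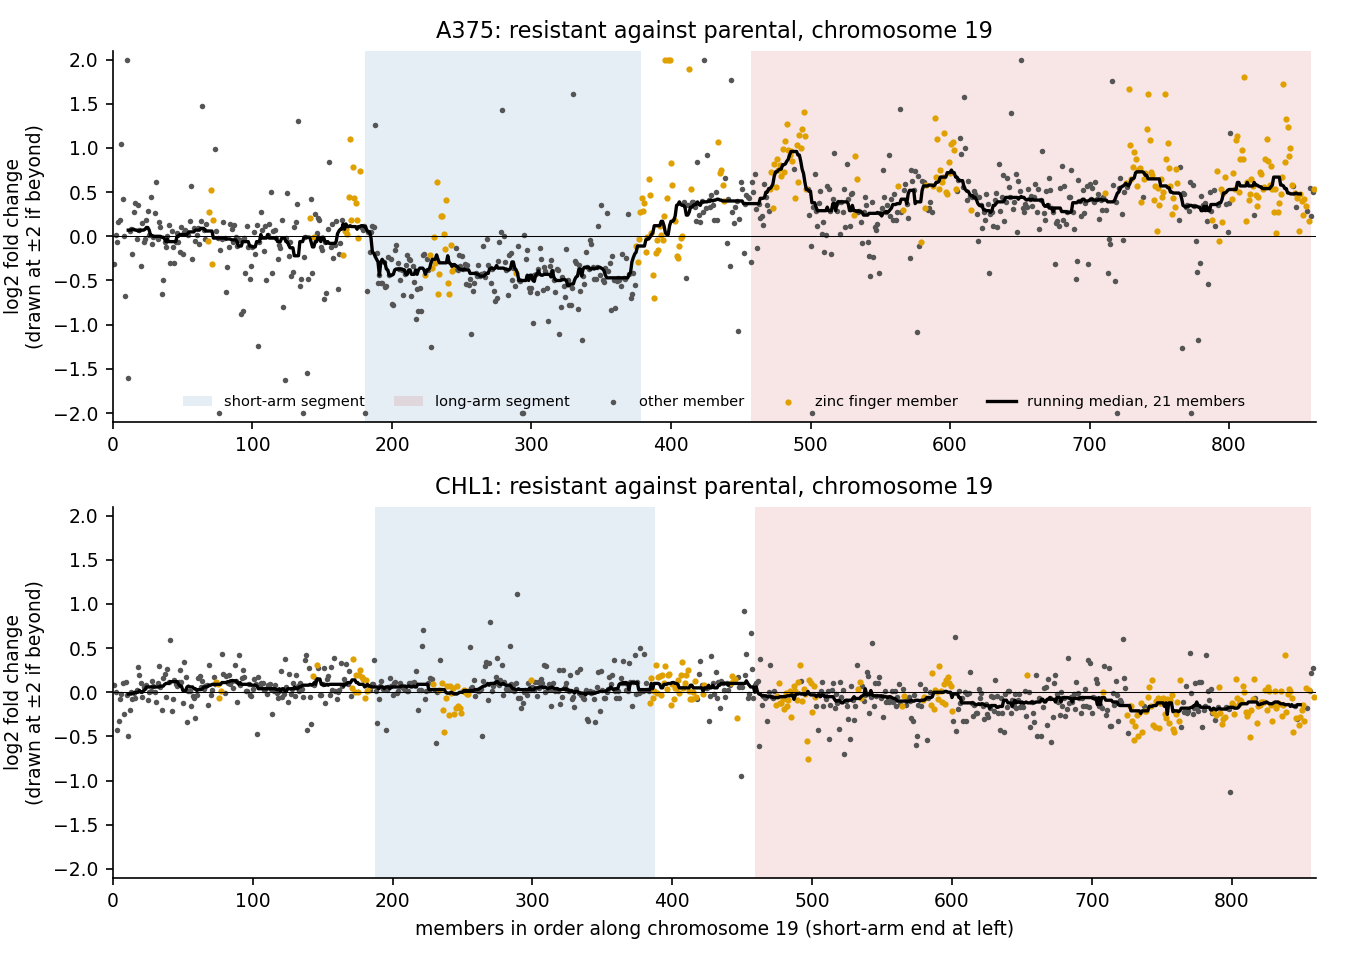
Log2 fold change of resistant against parental cells for each chromosome 19 member in gene order, in A375 (top) and CHL1 (bottom), with the running median of 21 members as a line and the 2 segments shaded. In A375 the line lies near 0 before COL5A3, below 0 in the short-arm segment and above 0 from the part after the widest gap to the end, while in CHL1 it stays within a narrow band around 0.

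The genes that name the ends of the segments did not all move with their segment. COL5A3, a fibrillar collagen chain, stood at 21.5, 12.1 and 9.95 CPM in the 3 parental A375 libraries, against 4.01, 2.19 and 2.69 CPM in resistant libraries. The groups did not overlap, and the log2 fold change was -2.29 ± 0.32 (SE). ZNF253, at the other end, went against its segment, with 8.97, 8.04 and 8.04 CPM in parental and 10.8, 10.3 and 9.22 CPM in resistant libraries (0.28 ± 0.11, not called). PROSER3, whose function is little known, stood at 27.5, 25.9 and 27.6 CPM in parental and 40.1, 40.4 and 43.2 CPM in resistant libraries (0.61 ± 0.06). The 2 groups were well apart. Just outside it, HSPB6, a small heat shock protein, stood at 1.65 and 1.35 CPM on average (-0.29 ± 0.25, overlapping). TRIM28 stood at 850, 925 and 929 CPM in parental and at 1357, 1316 and 1291 CPM in resistant libraries (0.55 ± 0.05), again without overlap. CHMP2A, beyond TRIM28, a subunit of the ESCRT membrane-cutting machinery, had 0.23 ± 0.06.

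Each A375 library showed the same split. The ratio of summed long-arm to summed short-arm counts was 1.24, 1.25 and 1.26 in parental and 2.09, 2.15 and 2.14 in resistant libraries. The short-arm members took 1.72% ± 0.0124 (SD, n = 3) of all counts in parental and 1.38% ± 0.0149 in resistant cells. The long-arm members took 2.15% ± 0.0349 and 2.93% ± 0.0249. In CHL1 the ratio was 1.22, 1.23 and 1.24 in parental and 1.11, 1.11 and 1.11 in resistant libraries, so it moved the other way and by far less. The CHL1 short-arm share went from 1.16% ± 0.0276 to 1.23% ± 0.048 and the long-arm share from 1.43% ± 0.0465 to 1.37% ± 0.0479.

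**Figure D2:**
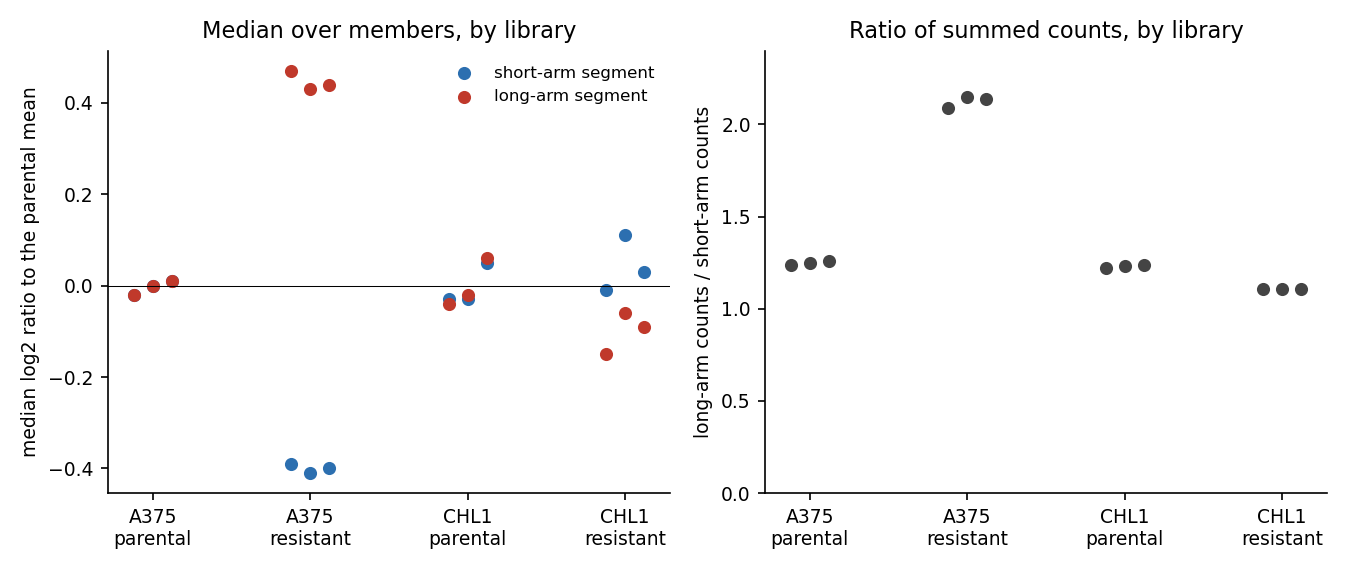
Left, the median over members of the log2 ratio of a library to the parental mean of its line, for the short-arm and the long-arm segment. Right, the ratio of summed long-arm to summed short-arm counts. Each point is 1 library. The 3 resistant A375 libraries lie at -0.39 to -0.41 and at 0.43 to 0.47 on the left and above 2 on the right, apart from all other libraries.

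Among the short-arm members with the most reads in A375, the fall was moderate and regular. SMARCA4, the ATPase of SWI/SNF chromatin remodellers, stood at 441, 410 and 417 CPM in parental and 360, 329 and 324 CPM in resistant libraries (-0.32 ± 0.06). TPM4, a tropomyosin of actin filaments, stood at 393, 398 and 474 CPM against 267, 264 and 288 CPM (-0.63 ± 0.08). Neither of them had overlapping groups. CDC37, the cochaperone that loads kinases onto HSP90, PRKCSH, a subunit of glucosidase II, and FARSA, a phenylalanyl-tRNA synthetase subunit, changed by -0.29, -0.20 and -0.42 on the log2 scale. DNMT1, the maintenance DNA methyltransferase, was 433 ± 3 CPM in parental and 472 ± 16.8 CPM in resistant libraries (0.12 ± 0.05, not called).

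A few short-arm genes moved much further than their neighbours. NOTCH3, a Notch receptor, stood at 17.8, 19.7 and 16.7 CPM in parental and 1.05, 1.69 and 1.53 CPM in resistant A375 libraries, a log2 fold change of -3.66 ± 0.17. IFI30, a lysosomal thiol reductase used in antigen processing, stood at 42.5, 41.7 and 58.8 CPM against 17.8, 21.1 and 24.6 CPM (-1.17 ± 0.16). ACP5, an acid phosphatase, and ANKLE1, an endonuclease, changed by -1.25 ± 0.14 and -1.11 ± 0.16. Both had groups that did not overlap, as did NOTCH3 and IFI30. EPHX3, an epoxide hydrolase, had the lowest value of the segment, -5.07, and was named after its values were seen. Against the segment, the 3 members called higher were ICAM1, PALM3 and UNC13A. ICAM1, the adhesion molecule that leukocyte integrins bind, stood at 28.1, 23.2 and 24 CPM in parental and 73.5, 46.4 and 60.9 CPM in resistant libraries (1.26 ± 0.16). UNC13A, a synaptic vesicle priming protein, had 1.61 ± 0.26 and PALM3, a paralemmin, 1.43 ± 0.18.

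Most of the long-arm members with the most reads were higher, by amounts that differed between genes. FTL, the ferritin light chain that stores iron, stood at 932, 1203 and 1281 CPM in parental and 1570, 2218 and 2145 CPM in resistant A375 libraries (0.80 ± 0.15). ACTN4, an actin-bundling alpha-actinin, stood at 1071, 985 and 1061 CPM against 1522, 1466 and 1459 CPM (0.51 ± 0.05). Neither gene had overlapping groups. HNRNPUL1, an RNA-binding protein, UBE2S, the ubiquitin-conjugating enzyme of the anaphase-promoting complex, and PPP2R1A, the scaffold of protein phosphatase 2A, changed by 0.44, 0.50 and 0.44. The splicing proteins HNRNPL and U2AF2 moved less, by 0.16 ± 0.05 and 0.05 ± 0.05, and U2AF2 overlapped between groups.

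Among long-arm members of at least 10 CPM in the higher group without overlap, the largest rises were seen in NPAS1, LRRC4B and 3 zinc finger genes. NPAS1, a neuronal transcription factor, stood at 4.6, 4.27 and 4.15 CPM in parental and 20, 22.4 and 16.3 CPM in resistant libraries (2.17 ± 0.14). LRRC4B, a synaptic adhesion protein, stood at 11.8, 6.97 and 7.62 CPM against 39.4, 20.7 and 29.2 CPM (1.76 ± 0.26). The zinc finger gene ZNF577 stood at 5.04, 4.97 and 4.99 CPM against 15.5, 16.1 and 16.3 CPM (1.67 ± 0.09). All 3 genes had groups far apart. The zinc finger genes ZNF528 and ZNF606 changed by 1.61 ± 0.12 and 1.33 ± 0.13. The 9 members called lower were KCNK6, SHKBP1, LTBP4, LYPD3, KLK6, VSTM1, NLRP2, SYT5 and IL11, and those outside the rule for named genes are given for completeness. NLRP2, a NOD-like receptor family gene, stood at 19.4, 15.5 and 24.8 CPM in parental and 0.663, 0.366 and 0.597 CPM in resistant libraries, a log2 fold change of -5.19 ± 0.25. LYPD3, a surface protein of the Ly6 family, the cytokine IL11 and LTBP4, which binds latent TGF-beta, changed by -1.08, -0.54 and -0.45. IL11 lost its call without parental library 1 or 3 or resistant library 1 or 3. COQ8B, a factor of coenzyme Q synthesis, had -0.23 ± 0.09 and was not called.

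**Figure D3:**
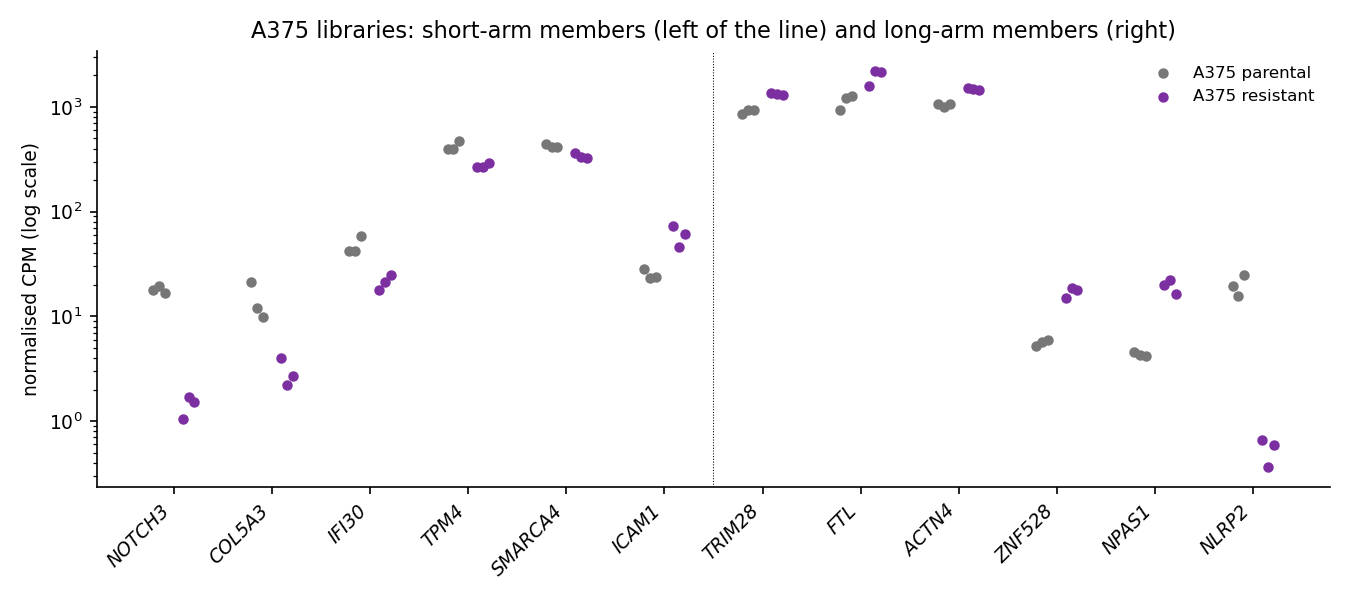
Normalised CPM (log scale) of 12 members in the 6 A375 libraries, short-arm genes left of the dotted line and long-arm genes right of it, each point 1 library. NOTCH3, COL5A3 and NLRP2 show the widest drops, ICAM1 goes against the short-arm segment, and NPAS1 and ZNF528 show wide rises.

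Zinc finger genes had higher medians than the other members of the same segment in A375. In the long-arm segment the 148 zinc finger members had a median log2 fold change of 0.65 (interquartile range 0.48 to 0.88). Of them 128 were called higher (86.5%) and none lower. The 253 other members had 0.37 (0.19 to 0.52), with 158 called higher (62.5%). In the short-arm segment the 23 zinc finger members had a median of -0.21, with 7 called lower (30.4%). The 175 others had -0.42, with 126 called lower (72%). Zinc finger genes also lay above the other genes outside the segments, at 0.13 against -0.01 on other chromosomes (254 and 11425 genes) and at 0.19 against -0.02 before COL5A3 (20 and 160 members), though not between the segments (0.23 against 0.36, 37 and 42 members). On other chromosomes 20.1% of zinc finger genes were called higher and 5.51% lower, against 13.3% and 17.8% of the other genes. Before COL5A3 25% of zinc finger members were called higher and none lower, against 11.9% and 17.5% of the others. Of all genes 13.4% were called higher and 14.8% lower. No test was made of these differences, since they rest on the contrast that set the segments. Among the long-arm zinc finger genes with the most reads, ZNF146 stood at 143, 166 and 139 CPM in parental and 254, 259 and 228 CPM in resistant libraries (0.73 ± 0.08). ZNF45 and ZNF544 changed by 0.67 and 0.58. On the short arm ZNF791 went from 35.1 ± 2.54 to 27.7 ± 1.23 CPM (SD, n = 3), while ZNF440 and ZNF506 overlapped between groups and ZNF844 was 0.23 ± 0.10, not called.

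In A375 each cluster of zinc finger genes within a segment had a median with the sign of that segment. Clusters were runs of at least 5 zinc finger members with at most 2 other members between neighbours. The cluster from ZNF653 to ZNF791 in the short-arm segment had a median of -0.25. In it 6 of 18 were called lower (33.3%), against 67.2% of all short-arm members. The cluster from ZNF101 to ZNF254, which spans the end of the short-arm segment, had 0.03 over 34 members. The long-arm clusters had medians of 0.86 (ZNF565 to ZNF573, 25 of 26 called higher), 0.72 (ZNF283 to ZNF180, 17 of 17), 0.67 (ZNF175 to ZNF331, 33 of 36), 0.49 (ZNF628 to ZNF581, 4 of 7) and 0.55 (ZNF787 to ZBTB45, 43 of 52). Between the segments, the cluster from ZNF302 to ZNF792 had a median of 0.72 with 4 of 5 called higher. Before COL5A3 the cluster from ZNF414 to ZNF846 had 0.19 with 5 of 13 called higher. That from ZNF554 to ZNF77 had 0.19 with none of 5 called. Of all genes 13.4% were called higher. Zinc finger genes of a cluster are near-identical in parts of their sequence, so counts of single members can include reads of a neighbour.

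**Figure D4:**
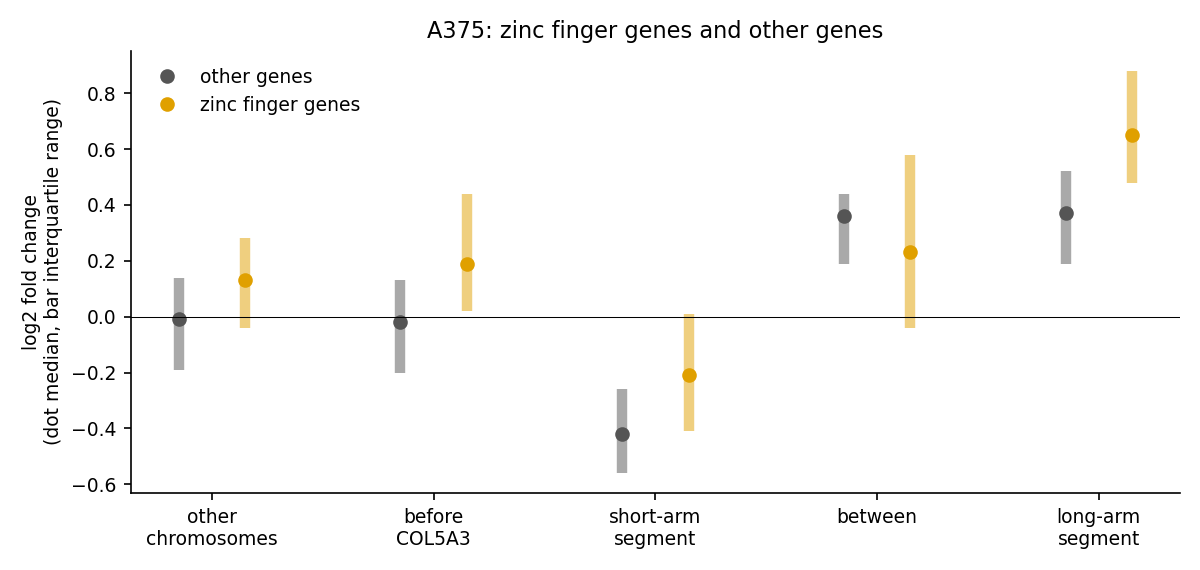
A375 log2 fold change of zinc finger genes and of other genes by section of chromosome 19 and for protein-coding genes of other chromosomes (dot, median; bar, interquartile range). The zinc finger dot lies above the other in the short-arm (-0.21 against -0.42) and the long-arm segment (0.65 against 0.37), and below it between the segments (0.23 against 0.36).

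The zinc finger promoters of the 2 segments held the same motifs at different shares, which were not tested and rest on 21 promoters for the short arm. RefSeq promoters matched 501 of the 599 A375 members. The ETS motif was found in 51.2% of 129 long-arm zinc finger promoters, in 13.8% of 217 other long-arm promoters and in 9.52% of 21 short-arm zinc finger promoters. Zinc finger promoters of other chromosomes held it in 35.3% of 241 cases and all 27305 promoters in 10.7%. The CCAAT box was found in 85.7% of short-arm and 39.5% of long-arm zinc finger promoters, in 42.7% of those of other chromosomes and in 35.7% of all promoters. The GC box GGGCGG was found in 84.5% of short-arm and 70.8% of long-arm promoters and in 44.6% of all. The set of all promoters was not limited to genes of 1 CPM or more. Its median GC content was 58.3%, against 65.3% for short-arm and 63.3% for long-arm promoters. All motifs were searched on both strands in the same window of 300 bases, and matches of different motifs can overlap at their ends. Among the long-arm zinc finger genes the median A375 log2 fold change was 0.62 for the 66 genes with the ETS motif and 0.67 for the 63 without it. For the other long-arm genes both medians were 0.37. A match is a run of letters and was not tested for binding.

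In A375 the median of every role list had the sign of its segment, and the lists are to be read beside the segment medians of -0.39 and 0.45. Their counts are to be read beside the 67.2% of short-arm members called lower and the 71.3% of long-arm members called higher. Of all genes 14.8% were called lower and 13.4% higher. Of 8 chromatin genes on the short arm 5 were called lower, among them GATAD2A, a NuRD subunit (-0.48), and of 11 on the long arm 8 were called higher, among them the arginine methyltransferase PRMT1 (0.57) and the ATPase RUVBL2 (0.57). Of the DNA repair and replication genes all 4 short-arm members were called lower, RNASEH2A and BABAM1 among them (-0.48 and -0.38). All 5 on the long arm were called higher, with the base excision repair scaffold XRCC1 at 46.7 ± 1.13 and 72.3 ± 6.22 CPM (0.63 ± 0.07). Of the RNA processing and translation genes 10 of 14 were called lower and 14 of 17 higher. Of the transcription factors 6 of 9 on the short arm were called lower, including NFIX (-0.45). On the long arm 9 of 15 were called higher, including the repressor ERF (0.59), while the liver X receptor NR1H2 was -0.03 ± 0.06.

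The same held for lists of cytoplasmic and surface proteins, whose counts are also to be read beside the segment shares of 67.2% and 71.3%. Of the membrane traffic genes 10 of 11 were called lower on the short arm, such as RAB8A, a small GTPase of secretion (-0.58), and 6 of 8 higher on the long arm, such as AP2S1, a subunit of the clathrin adaptor (0.63). The cytoskeleton list had 5 of 5 lower and 8 of 11 higher, and the ubiquitin, chaperone and phosphatase list 7 of 7 lower and 9 of 11 higher. Of the kinase and signalling genes 7 of 11 were called lower, including PRKACA, the catalytic subunit of protein kinase A (-0.29). On the long arm 9 of 15 were called higher, including AKT2 (0.29). Metabolic and mitochondrial genes had the lowest short-arm median of the lists, -0.59, with 12 of 14 called lower, and 11 of 19 called higher on the long arm, where the glutamine transporter SLC1A5 was 0.05 ± 0.07. Adhesion, surface and matrix genes had the highest long-arm median of the lists, 0.84, with 7 of 8 called higher and 1, the protease KLK6 (-3.00), lower. NECTIN2, a nectin that immune receptors bind, stood at 33.1, 29.7 and 37 CPM in parental and 69.2, 65 and 56.1 CPM in resistant libraries (0.93 ± 0.10), and the related PVR was 0.51 ± 0.07. On the short arm 3 of 7 were called lower, with ADGRE5, an adhesion receptor, at -0.66, and 1, ICAM1, higher.

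In CHL1 the same segments moved far less, and not in the A375 directions. The short-arm median was 0.04 (interquartile range -0.01 to 0.11) and the long-arm median -0.11 (-0.22 to 0.01), against 0.00 (-0.13 to 0.12) for protein-coding genes of other chromosomes. The CHL1 median was 0.07 over the 187 members before COL5A3 and 0.08 over the 72 members between the segments. The short-arm value was therefore not particular to that segment. By edgeR's quasi-likelihood test 19 short-arm members were called higher and 6 lower, 9.5% and 3% of them, where 9.50% and 11.5% of all genes were called higher and lower. In the long-arm segment 11 members were called higher (2.77%) and 64 lower (16.1%). With DESeq2 the count of lower long-arm members was 46 (11.6%), close to the 11.2% of all genes called lower in that fit. The long-arm shift was small, with 290 of 397 members below 0. It was not even along the segment. Spearman's rho between the change and the order along the chromosome was -0.20 across the 397 members, which share libraries and are not independent points. Of 26 runs of 15 members, 25 had a rounded median below 0, the lowest at -0.21. The remaining run, from ZNF428 to ZNF225, had -0.00. The count of lower long-arm members fell to 41 without parental library 1, to 36 without parental library 3 and to 26 without resistant library 3. These are 10.3%, 9.07% and 6.55% of the members, against 8.9%, 9.56% and 8.56% of all genes in the same fits, so the share was above the background in the first of these fits and below it in the other 2. Without resistant library 3 the short-arm count of lower members was 2, and it was 3 without parental library 1 or resistant library 1. Without parental library 2 the long-arm count of higher members was 7. Long-arm zinc finger genes had a CHL1 median of -0.12 and other long-arm genes -0.09.

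**Figure D5:**
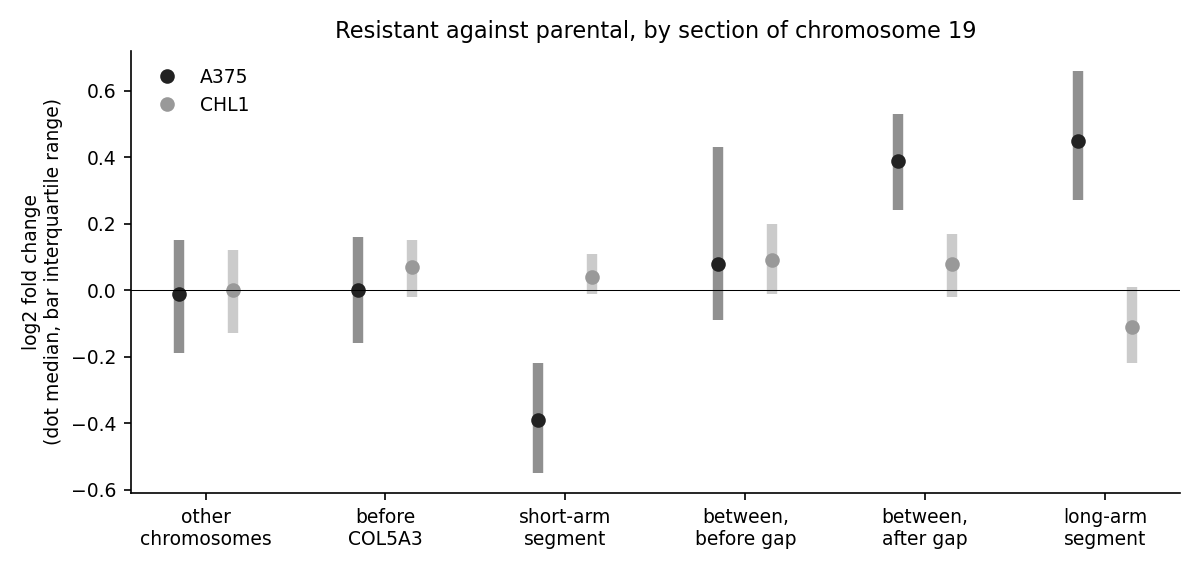
Log2 fold change of resistant against parental cells by section of chromosome 19 and for protein-coding genes of other chromosomes, in A375 (black) and CHL1 (grey), with dots for medians and bars for interquartile ranges. A375 lies at -0.39 in the short-arm and 0.45 in the long-arm segment, and CHL1 at 0.04 and -0.11.

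The members that changed most clearly in CHL1 were single genes of varied function. TMEM205, a membrane protein, stood at 56.7, 58.4 and 58.9 CPM in parental and 79.9, 85.9 and 83.2 CPM in resistant CHL1 libraries (0.52 ± 0.05, edgeR adjusted p = 2.4e-05), and was called lower in A375. MAN2B1, the lysosomal alpha-mannosidase, stood at 88.8, 83.3 and 92.9 CPM against 122, 132 and 123 CPM (0.51 ± 0.05, adjusted p = 4.9e-05). PALM3 stood at 3.08, 3.3 and 3.79 CPM against 7.09, 7.82 and 7.04 CPM (1.11 ± 0.11, adjusted p = 4.3e-05). It was the single short-arm member called higher in both lines. CCDC159 (0.70 ± 0.09, adjusted p = 0.00022) and TPM4 (0.31 ± 0.04, adjusted p = 0.0004) also rose. JUNB, a subunit of the AP-1 transcription factor, fell from 37.7 ± 2.91 to 26.8 ± 2.5 CPM (SD, n = 3; -0.49 ± 0.08, adjusted p = 0.001), and C19orf66, an antiviral protein, by 0.35 on the log2 scale (adjusted p = 0.014). ICAM5 (-0.43, adjusted p = 0.019), IFI30 (-0.34, 0.031) and KANK2 (-0.20, 0.042) were called lower as well. ICAM5 lost the call without parental library 1, parental library 2 or resistant library 3 (highest adjusted p = 0.083). IFI30 lost it without parental library 1 or 3 or resistant library 1 or 3 (0.09), and KANK2 without parental library 2 or 3 or resistant library 1 or 3 (0.12).

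On the long arm in CHL1, NLRP5, a NOD-like receptor family gene of the oocyte, stood at 21.2, 24.7 and 19.6 CPM in parental and 8.66, 10.7 and 10.5 CPM in resistant libraries (-1.13 ± 0.11, edgeR adjusted p = 2.2e-05). In A375 it averaged 0.09 and 0.0919 CPM, below the level of 3 counts per library. ZFP36, which marks cytokine mRNA for decay, stood at 20.6, 17.6 and 22.1 CPM against 12.1, 12.8 and 12.2 CPM (-0.70 ± 0.09, adjusted p = 0.00021). EMP3, a membrane glycoprotein, fell by 0.50 on the log2 scale (adjusted p = 0.00016), KIRREL2, an adhesion protein, by 0.61 (adjusted p = 0.0009) and TIMM50, a subunit of the mitochondrial import machinery, by 0.30 (adjusted p = 0.00065). BLVRB, a biliverdin reductase, stood at 23, 23.7 and 23.3 CPM against 32.1, 36.8 and 34.4 CPM (0.56 ± 0.07, adjusted p = 0.00011), with overlapping groups in A375. PSMC4, a proteasome ATPase, rose by 0.31 ± 0.05 (adjusted p = 0.00077), BRSK1, a neuronal kinase, by 0.42 ± 0.08 (adjusted p = 0.0019), APLP1, an amyloid precursor-like protein, by 0.38 ± 0.07 (adjusted p = 0.0022) and TTYH1, a tweety family membrane protein, by 0.44 ± 0.09 (adjusted p = 0.0037). None of these 10 genes lost its call when any 1 library was left out.

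The order of the members by their change was not shared between the lines. Spearman's rho between the A375 and the CHL1 log2 fold change was 0.04 across 373 long-arm genes and -0.10 across 190 short-arm genes, which share libraries and are not independent points. Of the 190 short-arm members of both lines, 13 were called lower in A375 and higher in CHL1, 10% of the 130 called lower in A375, against 8.33% of the other 60. Over all genes tested in both lines these shares were 11.3% and 9.36%. C19orf66, KANK2, JUNB and IFI30 were called lower in both. The CHL1 calls of KANK2 and IFI30 were lost without single libraries, as given above, and so were the A375 calls of KANK2 (without resistant library 2 or 3) and JUNB (without parental library 2 or 3 or resistant library 1 or 2). Of the 373 long-arm members of both lines, 47 were called higher in A375 and lower in CHL1, among them PVR, CALM3, AP2S1, TIMM50 and ZNF544. These were 17.4% of the 270 called higher in A375, and 12.6% of the other 103 were also called lower in CHL1. Over all genes tested in both lines the corresponding shares were 14.6% and 10.9%. APLP1, WDR62, PSMC4 and FUZ were called higher in both. In A375 the long-arm change had a rho of 0.25 with gene length and -0.14 with mean CPM across 401 genes of the same 6 libraries.

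Genes that the rule did not count as members are given here for comparison in A375. The genes left out by name had a median of -0.43 in the short-arm segment (6 genes) and 0.44 in the long-arm segment (18 genes tested). Genes of other types than protein-coding had -0.10 (13 genes, of which 3 were called lower and 4 lay above 0) and 0.37 (19 genes). At the CPM minimum, the 2 short-arm members between 1 and 1.25 CPM had a median of -0.21 and the 6 genes between 0.75 and 1 CPM just outside had -0.11, with a range of -0.68 to 1.34. The corresponding long-arm medians were 0.60 (2 members) and 0.58 (12 genes). The library kit does not mark the strand, and 120 of the 198 short-arm and 210 of the 401 long-arm members overlap a gene on the other strand, whose reads cannot be told apart from theirs. Without these members the A375 medians were -0.37 and 0.46.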

How the data were processed

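RNA of 12 libraries, 3 in each of 4 groups taken from the sample labels, was sequenced after a TruSeq RNA v2 preparation, which does not mark the strand, per the labels' protocols. The deposited values are read counts per Ensembl gene, whole numbers without normalisation, in 1 table per line. Tools listed in the submitters' processing notes are limma, HTSeq 0.5, TopHat2, CASAVA 1.8.2 and cutadapt 1.7. Build and annotation of the counting are not given in the sources consulted here. Gene order, types and names came from GENCODE release 29 by Ensembl identifier. All 12 columns were used. A floor of 3 counts stood for 0.101 to 0.118 CPM per library. It covers counting error only, as the reads carry no molecular identifiers.

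Each line was fitted alone in R 4.3.3 with edgeR 4.0.16 (TMM factors, filterByExpr with a minimum count of 10, quasi-likelihood F-test, two-sided). A call needs an adjusted p (Benjamini-Hochberg, over all genes tested) under 0.05. Levels are TMM-normalised CPM, each SE is the size of the log2 change over the root of F, and library ratios used a pseudocount of 0.1 CPM. The interaction of line and state was fitted to all 12 libraries. The calculation was tested on simulated data. Alternatives were DESeq2 1.42.0, other size factors, no filter, a replicate block, each library left out, other member minimums, log2(CPM + 1), and members without zinc finger or overlapping genes. The overlap, gene type, gap and zinc finger splits were chosen after seeing the data.

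Named genes were the 4 end genes with their outside neighbours, the 8 members per segment with the highest mean A375 CPM, the 5 largest A375 changes each way at 10 CPM or more without overlap, the 5 smallest CHL1 adjusted p each way, and up to 3 members with the highest CPM per role list. A few of these genes are not reported here. The members and lists were chosen with earlier results of these data known.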

Additional observations from a re-analysis of the deposited data

Results flagged for a closer look

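The difference of the resistance effect between the lines was read from the interaction term of edgeR's fit to all 12 libraries for 37 genes: the end genes, their outside neighbours and the named genes called in CHL1. It passed an adjusted p of 0.05 for 20 of them (54.1%), for 62.6% of the 190 short-arm and 71.6% of the 373 long-arm members of both lines, and for 23.6% of all 19241 genes tested. The term contains the A375 change that set the segments, and these genes were picked as ends or for a CHL1 call. A difference was therefore built in, and the values are a description that supports nothing. The values are CHL1 minus A375 on the log2 scale. Among short-arm genes they were 2.31 for COL5A3, 1.63 for CCDC159, 1.03 for TMEM205, 0.94 for TPM4, 0.88 for MAN2B1, 0.83 for IFI30, 0.78 for RNASEH2A, the catalytic subunit of ribonuclease H2, and 0.58 for BABAM1, a subunit of a BRCA1 complex. For IFI30 both lines were lower, A375 by more. BABAM1 lost its own CHL1 call without parental library 2 (adjusted p = 0.065).

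Among long-arm genes the value was 0.62 for BLVRB and below 0 for the others. It was -2.14 for LRRC4B, -1.03 for the zinc finger gene ZNF544, -0.87 for AP2S1, -0.84 for TIMM50, -0.84 for PVR, -0.76 for EMP3, -0.73 for PRMT1, -0.68 for CALM3, a calmodulin gene, -0.54 for TRIM28, -0.51 for PROSER3 and -0.23 for U2AF2. The CHL1 calls of LRRC4B, PRMT1 and U2AF2 were lost without single libraries: parental library 3 or resistant library 1 or 3 for LRRC4B, these and parental library 1 for PRMT1, and parental library 3 or resistant library 3 for U2AF2. The long-arm median was lower by 0.56 in CHL1 than in A375 (-0.56), with all 3 resistant A375 libraries above and all 3 resistant CHL1 libraries below their parental means. That difference was not tested.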

How the results depend on the processing

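Both A375 medians kept their sign under all alternatives run. With each library left out in turn, the short-arm median was -0.40 to -0.39, the long-arm median 0.45 to 0.47 and their difference, 0.84 as reported, 0.84 to 0.87. The short-arm median was -0.37 with library size as the only scaling, -0.42 without zinc finger genes, -0.36 as a difference of mean log2(CPM + 1) and -0.37 without members overlapping the other strand. The long-arm median was 0.37 without zinc finger genes and 0.43 on log2(CPM + 1). The difference was 0.83 and 0.82 at 5 and 10 CPM or more, 0.79 without zinc finger genes, 0.79 on log2(CPM + 1) and 0.83 without overlapping members. In A375 the long-arm count of lower members was 5 at 5 or 10 CPM or more, the short-arm count of higher members 1 at 10 CPM or more (3 to 5 with a library left out), and the long-arm count of higher members 158 without zinc finger genes, where fewer genes are counted. In CHL1 the short-arm count of lower members was 3 and the long-arm count of lower members 40 at 10 CPM or more. With a library left out these were 2 to 6 and 26 to 57, and the long-arm count of higher members 7 to 10. The cause of these changes was not tested.

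With single libraries left out the sign of small changes turned, in A375 for ZNF506 (-0.10 to 0.01), ZFP36 (-0.20 to 0.20), SLC1A5 (-0.01 to 0.09) and BLVRB (-0.17 to 0.04), and in CHL1 for COL5A3 (-0.25 to 0.23), ZNF253 (-0.05 to 0.08) and TRIM28 (-0.01 to 0.04). None of these changes was called in the line given. Single libraries also ended the A375 calls of ARHGEF1, CHMP2A, CIC, EMP3, ERCC1, HNRNPL, IL11, JUNB, KANK2, NR2F6, PRKCSH and ZNF93.

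Replicate numbers were not treated as pairs, since deviations of same-numbered libraries correlated at 0.38, 0.38 and -0.02 in A375 and at 0.24, -0.00 and 0.09 in CHL1, and not every library correlated best with its own number. With the replicate block, 6307 genes were called in A375 (5111 without it) and 4339 in CHL1 (3623 without it), and 29 short-arm members were called higher in CHL1 in place of 19 (14.5% of members, 11.7% of all genes). The CHL1 long-arm count of lower members was 93 in place of 64 (23.4% of members, 13.5% of all genes).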
